A study of Mus musculus with 6 samples.

Results

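The proteasome genes of mouse quadriceps muscle were described in 6 bulk RNA-seq libraries. They were taken by symbol: every gene whose name begins with Psm, a letter from a to g and a number was kept, its transcripts were summed as TPM, a length-corrected share of all transcripts, and genes that reached 1 TPM in 3 or more libraries were analysed. The pattern matched 50 of 33641 gene symbols, and 47 passed the filter, among 11099 genes that passed in the whole table. One of the 47, Psmc3ip, carries a similar symbol but encodes a recombination protein, so it was set apart, which left 46 proteasome genes. These were 14 genes of the 20S core (7 alpha and 7 beta), 17 of the 19S regulatory particle, 3 immunoproteasome subunits, 4 activator genes, 1 inhibitor and 7 assembly chaperones. Psma8, a testis subunit, was listed at 0 in all 6 libraries; Psmb11, the thymus subunit, lay between 0 and 0.0798 TPM, and Psme2b, a copy of Psme2, between 0.170 and 0.525 TPM, so none of these 3 passed. All 46 genes analysed were above 1 TPM in all 6 libraries, so none passed through 1 genotype alone.

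The muscles came from male littermates of heterozygous parents at 4 months of age and were collected at about zeitgeber time 4, counted in hours from lights on, then frozen. The 3 libraries Homo 1 to Homo 3 were homozygous for the rs6190 allele (rs6190 allele +/+), a change in the mouse Nr3c1 gene, which encodes the glucocorticoid receptor, that copies the human single-nucleotide variant of that name. The 3 libraries WT 1 to WT 3 carried the reference allele on both chromosomes (ref allele +/+). The allele is in the germline, so muscle fibres and every other cell type of the tissue carried it. The labels name no treatment for either group, and no library from heterozygous mice was analysed here. The comparison asks how the muscle transcriptome differs between the genotypes. The labels do not tie each library to a separate mouse, so the p-values measure only the spread between these libraries.

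The proteasome is the barrel-shaped protease that degrades ubiquitin-tagged proteins in the cytosol and nucleus. Its 20S core is built from stacked rings of alpha and beta subunits, and the beta subunits Psmb5, Psmb6 and Psmb7 hold the cutting sites inside. The 19S regulatory particle caps the core: its Psmc ATPases unfold the substrate and pull it in, and its Psmd subunits bind ubiquitin and remove it. In immune cells, or under interferon, Psmb8, Psmb9 and Psmb10 take the places of the cutting subunits. In muscle the pathway is best known for the breakdown of contractile proteins during wasting, and the transcription factor Nfe2l1 raises subunit genes together when proteasome activity is short.

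The values were TPM, which sum to 1000000 in each library and keep no depth, so the number of reads behind them is unknown. Genes were tested on log2(TPM + 1) with limma, and p-values were adjusted by the Benjamini-Hochberg method over all 11099 genes. Fold changes on that scale understate the change of low genes. The defining muscle genes were abundant in every library, with Acta1 (skeletal actin) at 16711 to 27969 and Ckm (muscle creatine kinase) at 17248 to 32549 TPM. Most of the transcriptome leaned one way: 9526 of 11099 genes (85.8%) had a log2 fold change above 0 in the homozygous group, with a median of 0.26. WT 3 stood apart from the other libraries, with 14.3% of its TPM on mitochondrial transcripts against 20.9% to 33.9%, and a summed level of 11 slow-fibre genes of 245 TPM against 1123 to 9714 TPM. The highest slow-fibre sum was in Homo 2. Markers of fibre types and of other cells also had one-sided values, none past the adjusted threshold: all 11 slow-fibre genes had a log2 fold change above 0 (median 2.25; 1 at an unadjusted p under 0.05 in limma, 7 with the groups apart), and 2 of 12 fast-fibre genes did (median -0.39). All 4 Schwann cell genes were higher at an unadjusted p under 0.05 with the groups apart (median 1.32), and summed to 74.3, 101.7 and 27.9 TPM in Homo 1, 2 and 3 against 18.0, 24.8 and 15.6 TPM in WT 1, 2 and 3. Over all genes 23.7% were higher at that p in limma and 34.7% were higher with the groups apart. The part of the Schwann and fast-fibre genes in the proteasome values was not tested. In bulk tissue, fewer cells of a type and less RNA per cell cannot be told apart.

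The genes of the 20S core and of the 19S particle were higher in the homozygous libraries. Those of the immunoproteasome had no common direction. The assembly chaperones lay on both sides of 0 as deposited, and each was below the median of all genes. None of the differences passed the adjusted test. All 31 core and regulatory genes had a higher mean TPM in the homozygous group, by 1.14 to 1.91 times (median 1.47), from WT means of 43.2 to 271 TPM; with median centring of the libraries 29 of the 31 were higher (44.3% of all genes), without Psma1 and Psmb6. The other 15 genes had ratios of 0.861 to 1.48 (median 1.11), from WT means of 1.60 to 48.6 TPM. None of the 46 genes passed an adjusted p of 0.05 in limma, where 0 of 11099 genes (0.0%) did so in either direction; the members' adjusted p ran from 0.168 to 0.990. At an unadjusted p under 0.05 limma counted 26 of the 46 genes as higher and 0 as lower, against 2636 of all genes (23.7%) higher and 61 (0.55%) lower. The 3 homozygous libraries lay wholly above the 3 WT libraries for 25 of the 46 genes, against 3856 of all genes (34.7%), and wholly below for 0, against 81 (0.73%). That split depended on scaling: it was 4 wholly above and 1 wholly below with quantile normalization (8.05% and 7.34% of all genes), and 1 above and 3 below with median centring (6.79% and 8.38%). The median log2 fold change was 0.42 over the 46 genes, 0.40 over the core and 0.55 over the regulatory particle, beside 0.26 over all genes. The count of 26 varied with single libraries: it was 7 without Homo 3, 11 without Homo 2 and 14 without WT 2. The full range with 1 library left out is given with the other settings. Shares of all genes were not counted for these smaller fits, so the falls are not shown to be particular to the proteasome.

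**Figure D1:**
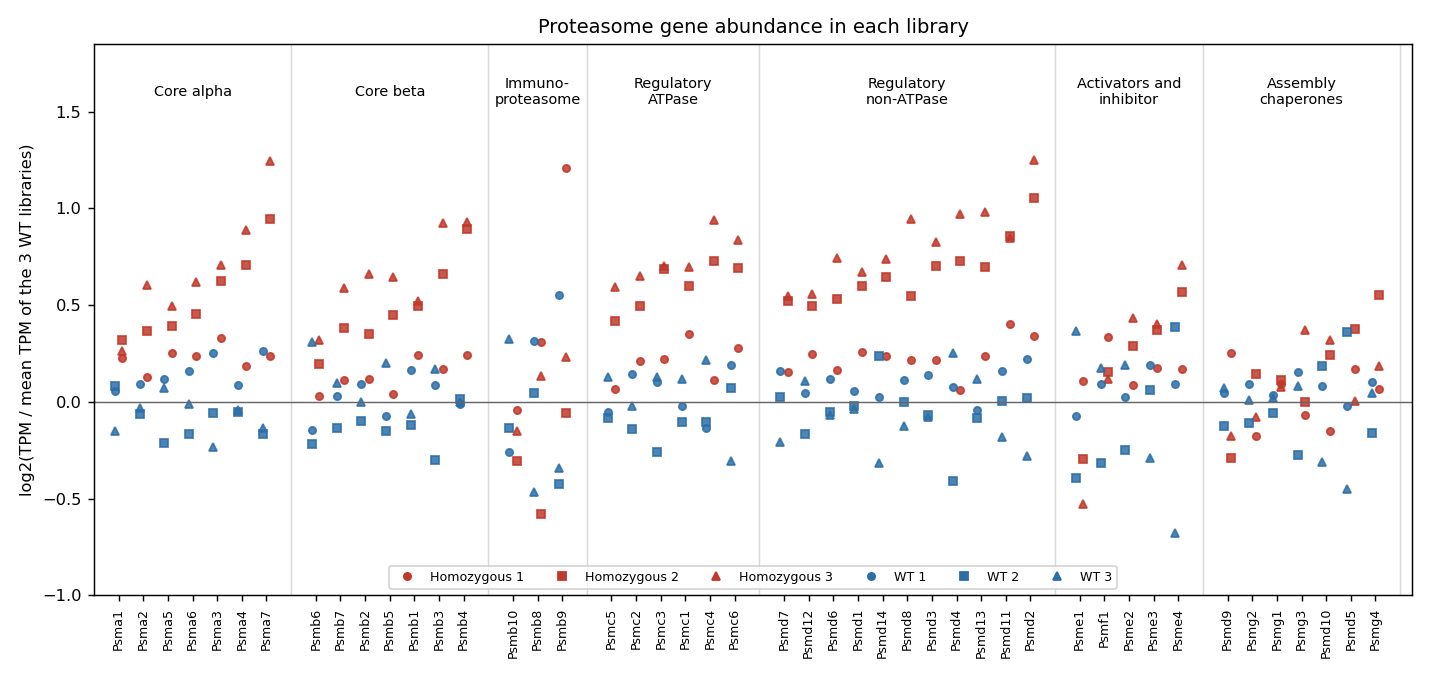
Level of each of the 46 proteasome genes in each library, as log2 of its TPM over the mean TPM of the 3 WT libraries (0 is the WT mean), by particle; each point is 1 library, with colour for genotype and shape for library number. For most core and regulatory genes Homo 3 and Homo 2 lie well above the WT libraries, and Homo 1 is the lowest homozygous library. In Psmb6, WT 3 lies above Homo 2. The immunoproteasome and chaperone genes are mixed.

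Within the homozygous group the genes of both large particles were mostly in the same library order. Homo 1 was the lowest of the 3 homozygous libraries for 14 of 14 core and 17 of 17 regulatory genes. Homo 3 was the highest of all 6 libraries for 13 and 16 of them. Such orders were not counted over all genes, so they are not shown to be particular to the proteasome. Relative to the WT mean of each gene, the median core gene stood at 1.15 in Homo 1, 1.37 in Homo 2 and 1.55 in Homo 3, and at 1.06, 0.916 and 0.995 in WT 1, WT 2 and WT 3. For the regulatory genes the same values were 1.17, 1.56 and 1.68 against 1.07, 0.953 and 0.976. Homo 1 was the homozygous library nearest to WT and lay above the highest WT library for 28 of the 46 genes. Over all 46 its median level was 1.03 times that of the highest WT library. The count of 28 was likewise not made over all genes. The summed slow-fibre level had another order (1902, 9714 and 2241 TPM in Homo 1 to Homo 3), and its part in the result was not tested beyond the covariate given with the other settings.

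The alpha subunits form the outer rings of the core, which gate entry to it. All 7 expressed alpha genes were higher on average in the homozygous group (6 with median centring, without Psma1), 6 of them at an unadjusted p under 0.05 in limma and 6 with the groups apart, with a median log2 fold change of 0.44; the shares over all genes were 23.7% and 34.7%, and the median 0.26. Psma7 was the most abundant, at 185, 303 and 373 TPM in Homo 1, 2 and 3 against 188, 140.2 and 143 TPM in WT 1, 2 and 3. Homo 2 and Homo 3 were far above the rest, but Homo 1 lay below WT 1, so the groups overlapped; the log2 fold change was 0.82 ± 0.26 (SE; adjusted p = 0.168 in limma), the highest of the core. Psma3, at 163, 199.8 and 211 TPM with the rs6190 allele against 154, 124 and 109.9 TPM with the reference allele, separated the groups, with Homo 1 nearest to WT 1. Its log2 fold change was 0.57 ± 0.17 (SE; adjusted p = 0.168 in limma). Psma1 had the smallest difference of the alpha genes, with 69.97, 74.8 and 71.9 TPM in Homo 1, 2 and 3 against 62.3, 63.3 and 54.0 TPM in WT 1, 2 and 3. The homozygous libraries lay close together and above all 3 WT libraries, at a log2 fold change of 0.27 ± 0.12 (SE; adjusted p = 0.218 in limma). The remaining 4, Psma2, Psma4, Psma5 and Psma6, had log2 fold changes of 0.36 to 0.59, and each kept the groups apart. Psma5 had the lowest TPM of the core in all 6 libraries.

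Among the 7 constitutive beta genes, 4 were higher at an unadjusted p under 0.05 in limma and 5 kept the groups apart, with a median log2 fold change of 0.38 (all genes: 23.7%, 34.7% and 0.26). Psmb4, a structural subunit of the inner ring, showed the clearest separation, with 178, 279 and 286 TPM with the rs6190 allele against 149, 151 and 149.7 TPM with the reference allele. The WT libraries were almost equal, Homo 1 was a step above them, and Homo 2 and Homo 3 were higher again. The log2 fold change was 0.69 ± 0.19 (SE; adjusted p = 0.168 in limma). The 3 cutting subunits differed less. Psmb5, the chymotrypsin-like subunit, had 190.2, 253 and 289.9 TPM in Homo 1, 2 and 3 against 176, 167 and 213 TPM in WT 1, 2 and 3, where Homo 1 lay below WT 3, and a log2 fold change of 0.38 ± 0.19 (SE; adjusted p = 0.236 in limma). Psmb6, the caspase-like subunit, had 277, 311 and 338 TPM with the rs6190 allele against 245, 232 and 335 TPM with the reference allele, and WT 3 was level with Homo 3. Its log2 fold change of 0.20 ± 0.18 (SE; adjusted p = 0.457 in limma) was the smallest of the 31 core and regulatory genes. Psmb7, the trypsin-like subunit, was at 262, 315 and 364 TPM in Homo 1, 2 and 3 against 247, 221 and 259 TPM in WT 1, 2 and 3, with the groups narrowly apart, at a log2 fold change of 0.36 ± 0.16 (SE; adjusted p = 0.209 in limma). Psmb1, Psmb2 and Psmb3 had log2 fold changes of 0.38 to 0.60 and kept the groups apart.

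The immunoproteasome subunits were rare in this tissue and had no common direction. Psmb8, which replaces Psmb5, was at 4.20, 2.27 and 3.73 TPM with the rs6190 allele against 4.23, 3.50 and 2.46 TPM with the reference allele. Its values were mixed between the groups, with a log2 fold change of -0.005 ± 0.24 (SE; adjusted p = 0.990 in limma). Psmb9, which replaces Psmb6, was at 3.70, 1.54 and 1.88 TPM in Homo 1, 2 and 3 against 2.35, 1.19 and 1.26 TPM in WT 1, 2 and 3; Homo 1 was highest, the other 5 libraries overlapped, and the log2 fold change was 0.35 ± 0.28 (SE; adjusted p = 0.415 in limma). Psmb10, which replaces Psmb7, was the most abundant of the 3, at 18.2, 15.2 and 16.8 TPM with the rs6190 allele against 15.7, 17.1 and 23.4 TPM with the reference allele. WT 3 was highest and the groups overlapped, with a log2 fold change of -0.14 ± 0.17 (SE; adjusted p = 0.605 in limma). The count at an unadjusted p under 0.05 in limma was 0 of 3, where 23.7% of all genes were higher at that p. The median log2 fold change was -0.005, beside 0.26 over all genes. Psmb8 and Psmb9 lie on opposite strands of chromosome 17, 9956 bases apart, and Psmb9 overlaps Tap1 on the other strand.

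The RNAs of the cutting subunits and their replacements are alike enough to be compared base by base, which bears on whether reads could be exchanged between them. The lines give 60 coding bases of each from GENCODE M21 transcripts, starting at the codon of the catalytic threonine, which is in capitals.
Psmb5: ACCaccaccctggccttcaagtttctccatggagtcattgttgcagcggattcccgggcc
Psmb8: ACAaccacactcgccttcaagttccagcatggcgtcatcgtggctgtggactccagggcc
Psmb6: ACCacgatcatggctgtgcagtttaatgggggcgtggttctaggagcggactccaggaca
Psmb9: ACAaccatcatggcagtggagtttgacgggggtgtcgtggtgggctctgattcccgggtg
Psmb7: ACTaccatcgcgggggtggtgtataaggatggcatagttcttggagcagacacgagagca
Psmb10: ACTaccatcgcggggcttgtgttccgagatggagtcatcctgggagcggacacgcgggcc
Over these stretches Psmb5 and Psmb8 were identical at 47 of 60 bases (78.3%), Psmb6 and Psmb9 at 41 (68.3%) and Psmb7 and Psmb10 at 43 (71.7%). No run of 31 bases was shared within any of the 3 pairs over their whole annotated transcripts.

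As a share of each pair's summed TPM, Psmb8 was 2.16%, 0.890% and 1.27% in Homo 1, 2 and 3 against 2.35%, 2.06% and 1.14% in WT 1, 2 and 3, or 1.44% ± 0.653 against 1.85% ± 0.630 (SD, n = 3 each). For Psmb9 the shares were 1.32%, 0.494% and 0.553% in Homo 1, 2 and 3 against 0.950%, 0.511% and 0.375% in WT 1, 2 and 3, or 0.789% ± 0.460 against 0.612% ± 0.301 (SD, n = 3 each). Those of Psmb10 were 6.50%, 4.59% and 4.43% in Homo 1, 2 and 3 against 5.97%, 7.18% and 8.31% in WT 1, 2 and 3, or 5.17% ± 1.15 against 7.15% ± 1.17 (SD, n = 3 each). All 3 shares overlapped between the groups. The Psmb10 difference of -1.98 percentage points was -0.046 when protein-coding transcripts alone were counted; most of its TPM lay on other transcripts, led by a retained intron. The difference for Psmb9, 0.18 percentage points, turned to -0.089 without Homo 1. The 11 immune-cell markers summed to 76.8, 74.4 and 83.6 TPM in Homo 1, 2 and 3 and to 85.6, 110.2 and 29.3 TPM in WT 1, 2 and 3; 9 to 11 of them were above 0 in each library. Ptprc, the pan-leukocyte marker, lay at 0.0892 to 0.638 TPM. Their part in the immunoproteasome values was not tested.

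**Figure D2:**
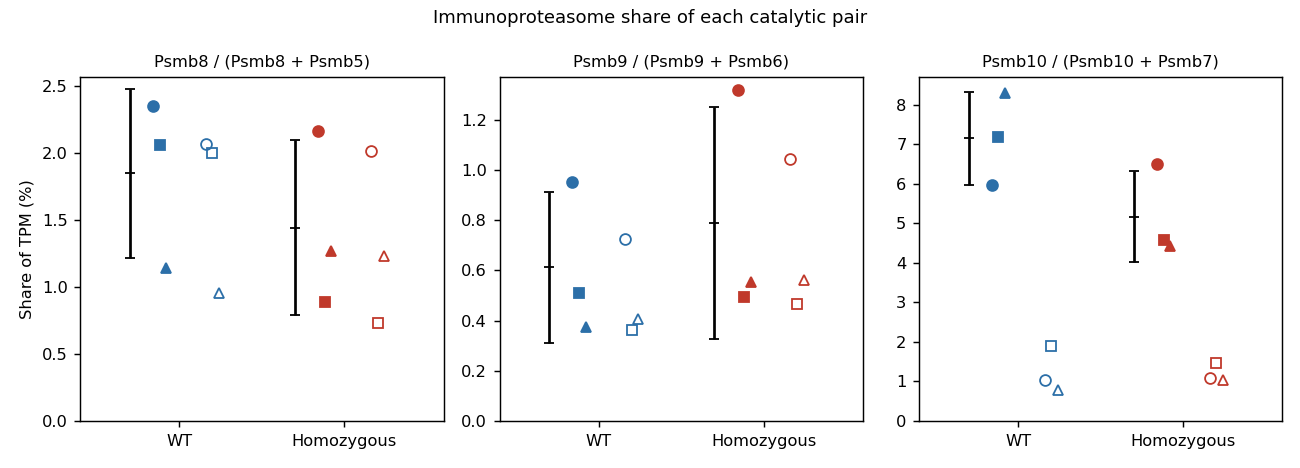
Share of each immunoproteasome subunit in the summed TPM of it and the constitutive subunit it replaces, in percent, on separate scales; filled points are libraries with all transcripts, open points the same libraries with protein-coding transcripts alone, shapes are library numbers, and bars are the mean ± SD of the filled points. The genotypes overlap in all 3 pairs, and the open points of Psmb10 lie at 0.771% to 1.90%, far under its filled ones.

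The 6 ATPase genes of the regulatory particle were all higher on average, 5 at an unadjusted p under 0.05 in limma and 4 with the groups apart, with a median log2 fold change of 0.54 (all genes: 23.7%, 34.7% and 0.26). Psmc1 separated the groups with the widest margin of the 6, at 113, 135 and 144 TPM in Homo 1, 2 and 3 against 87.6, 82.8 and 96.5 TPM in WT 1, 2 and 3. All 3 homozygous libraries were well above the highest WT library. Its log2 fold change was 0.55 ± 0.14 (SE; adjusted p = 0.168 in limma). Psmc6 had the highest fold change of the ATPases, at 75.9, 101 and 112 TPM with the rs6190 allele against 71.3, 65.7 and 50.7 TPM with the reference allele, where the groups were apart and WT 3 was lowest. The log2 fold change was 0.61 ± 0.19 (SE; adjusted p = 0.168 in limma). Psmc5 had the smallest, with 135, 172 and 195 TPM in Homo 1, 2 and 3 against 124, 122 and 141 TPM in WT 1, 2 and 3, and Homo 1 lay within the WT range. There the log2 fold change was 0.36 ± 0.16 (SE; adjusted p = 0.219 in limma). Psmc2, Psmc3 and Psmc4 lay between, at 0.45 to 0.60.

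All 11 non-ATPase subunits of the regulatory particle were higher at an unadjusted p under 0.05 in limma, and 9 kept the groups apart, with a median log2 fold change of 0.57 (all genes: 23.7%, 34.7% and 0.26). With quantile normalization the counts were 2 and 3 of 11 (all genes: 4.54% and 8.05%), and 2 and 1 with median centring (3.65% and 6.79%). Psmd2 encodes a large scaffold subunit that docks ubiquitin carriers and lies at chr16:20651652-20663414 on the plus strand (GRCm38). It was at 122, 199.5 and 228 TPM with the rs6190 allele against 112, 97.1 and 79.0 TPM with the reference allele. Homo 2 and Homo 3 were far above the WT libraries, whereas Homo 1 was only a little above WT 1. The means were 183 ± 55.2 against 96.0 ± 16.4 TPM (SD, n = 3 each), and the log2 fold change, 0.89 ± 0.25 (SE; adjusted p = 0.168 in limma), was the highest of all 46 genes. Psmd11, a lid subunit that clamps the regulatory particle to the core, was at 57.1, 78.3 and 77.8 TPM in Homo 1, 2 and 3 against 48.2, 43.3 and 38.1 TPM in WT 1, 2 and 3. The groups were apart, at a log2 fold change of 0.70 ± 0.17 (SE; adjusted p = 0.168 in limma). Psmd7, a lid subunit that pairs with the deubiquitinase Psmd14, had 116, 149 and 152 TPM with the rs6190 allele against 116, 106 and 89.98 TPM with the reference allele. Homo 1 was level with WT 1, so the groups overlapped narrowly, and the log2 fold change, 0.41 ± 0.16 (SE; adjusted p = 0.188 in limma), was the smallest of the 11. Psmd14 kept its groups apart by the narrowest of margins, with 50.93 TPM in Homo 1 and 50.92 TPM in WT 2 (named after its values were seen). The other non-ATPase genes, with Psmd8 the most abundant, had log2 fold changes of 0.43 to 0.63.

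Activators that dock to the core in place of the regulatory particle were mixed. None of the 4 was at an unadjusted p under 0.05 in limma or kept the groups apart. Over all genes 23.7% were higher at that p and 34.7% wholly above WT. The activators had a median log2 fold change of 0.30, beside 0.26 over all genes. Psme1 and Psme2 form 1 ring, induced by interferon, and lie 5911 bases apart on chromosome 14, yet their values differed in sign. Psme1 was at 31.9, 24.1 and 20.5 TPM in Homo 1, 2 and 3 against 28.2, 22.5 and 38.2 TPM in WT 1, 2 and 3, with WT 3 highest and Homo 3 lowest, and a log2 fold change of -0.20 ± 0.23 (SE; adjusted p = 0.564 in limma). Psme2 was at 29.6, 34.0 and 37.6 TPM with the rs6190 allele against 28.3, 23.4 and 31.8 TPM with the reference allele, with a log2 fold change of 0.27 ± 0.16 (SE; adjusted p = 0.293 in limma). The groups overlapped in both. Psme3, the nuclear activator, had 33.7, 38.5 and 39.3 TPM in Homo 1, 2 and 3 against 33.9, 31.04 and 24.3 TPM in WT 1, 2 and 3; Homo 1 was just below WT 1, and the log2 fold change was 0.32 ± 0.16 (SE; adjusted p = 0.236 in limma). Psme4, a large single-chain activator, was at 54.7, 72.1 and 79.4 TPM with the rs6190 allele against 51.8, 63.6 and 30.3 TPM with the reference allele, the widest WT spread of the 4, with WT 3 lowest. It had a log2 fold change of 0.54 ± 0.27 (SE; adjusted p = 0.244 in limma). The inhibitor Psmf1 was at 9.13, 8.06 and 7.86 TPM in Homo 1, 2 and 3 against 7.73, 5.82 and 8.17 TPM in WT 1, 2 and 3, overlapping between the groups, with a log2 fold change of 0.19 ± 0.16 (SE; adjusted p = 0.447 in limma).

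The 7 assembly chaperones, which help to build the particles but are not part of the finished enzyme, had small differences between the genotypes. Their log2 fold changes ran from -0.06 to 0.25 with a median of 0.10, and 0 of 7 exceeded the median of all genes. Quantile normalization put all 7 below 0, at -0.34 to -0.024, where 48.9% of all genes were above 0. In limma 0 of 7 were at an unadjusted p under 0.05, and 1, Psmg1, kept the groups apart, with 12.6 to 12.9 TPM against 11.5 to 12.2 TPM. Over all genes 23.7% were higher at that p and 34.7% wholly above WT. Psmd5 and Psmd9 assist the base of the regulatory particle. Psmd5 was at 8.39, 9.69 and 7.48 TPM with the rs6190 allele against 7.33, 9.58 and 5.45 TPM with the reference allele, at a log2 fold change of 0.19 ± 0.20 (SE; adjusted p = 0.536 in limma). Psmd9 was at 14.9, 10.2 and 11.1 TPM in Homo 1, 2 and 3 against 12.9, 11.5 and 13.1 TPM in WT 1, 2 and 3, at a log2 fold change of -0.06 ± 0.17 (SE; adjusted p = 0.812 in limma). The groups overlapped in both genes. The core chaperones Psmg4 and Psmg2 marked the ends of their group. Psmg4 had 12.5, 17.5 and 13.6 TPM with the rs6190 allele against 12.8, 10.7 and 12.3 TPM with the reference allele, with Homo 2 above the rest and a log2 fold change of 0.25 ± 0.16 (SE; adjusted p = 0.331 in limma). Psmg2 had 19.3, 24.1 and 20.7 TPM in Homo 1, 2 and 3 against 23.3, 20.3 and 22.0 TPM in WT 1, 2 and 3, mixed between the groups, with a log2 fold change of -0.03 ± 0.14 (SE; adjusted p = 0.877 in limma). Summed over the 7 genes, the level was 84.3, 93.2 and 87.8 TPM in Homo 1, 2 and 3 against 87.8, 79.9 and 82.0 TPM in WT, whereas the 14 core genes summed to 2230.1, 2874 and 3231 TPM against 2082, 1818 and 2067 TPM. The difference between chaperones and subunits was not tested.

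**Figure D3:**
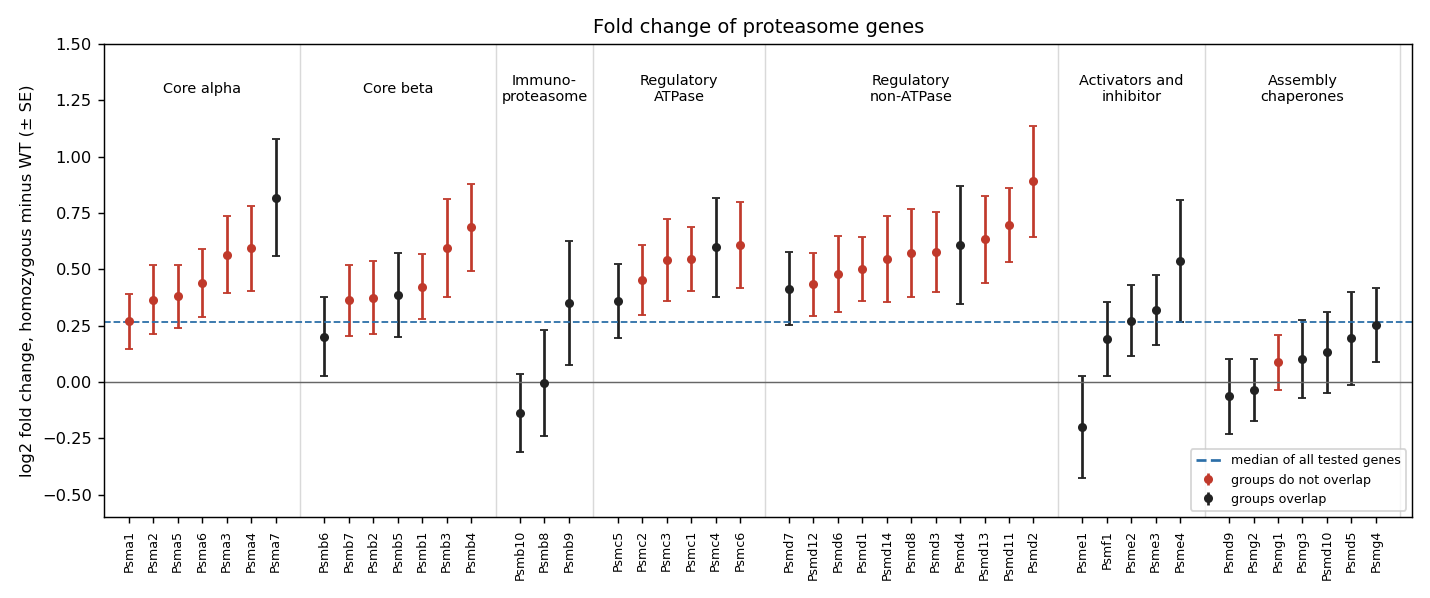
Log2 fold change (homozygous minus WT, on log2(TPM + 1)) of each proteasome gene with its standard error, by particle; red marks genes whose groups do not overlap, and the dashed line the median of all genes, 0.26. The 17 regulatory genes and 13 of the 14 core genes lie above the dashed line, and all 7 assembly chaperones lie under it.

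At the level of single transcripts, 115 of the 234 annotated isoforms of the 46 genes passed the same filter. None passed the adjusted threshold in limma (smallest adjusted p 0.247), against 9 of 21165 isoforms in the whole table (0.0425%). At an unadjusted p under 0.05, 35 of the 115 were higher and 3 lower, against 14.2% and 1.52% of all isoforms. Of the 3 isoforms with the smallest p, a retained-intron transcript of Psme2 was listed at 0 in all 3 homozygous libraries and at 1.26, 2.70 and 1.21 TPM in WT. A non-coding transcript of Psma7, of 292 bases, was at 7.005, 7.47 and 8.48 TPM against 0.799, 3.73 and 2.30 TPM. A protein-coding Psmf1 transcript of 3809 bases was at 2.32, 2.80 and 2.94 TPM against 1.22, 0.544 and 0 TPM. The groups were apart for all 3, which were picked by their small p, so this adds little to it. The share of all isoforms with groups apart was not counted. The Psma7 and Psmf1 genes as a whole overlapped.

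Of 41 further genes tested that supply, feed or control the proteasome, 17 were higher and 0 lower at an unadjusted p under 0.05 in limma, 19 lay wholly above WT, and 0 passed the adjusted threshold; the median log2 fold change was 0.34. Over all genes 23.7% were higher at that p and 34.7% wholly above, and with quantile normalization 3 of the 41 were higher at that p (4.54% of all genes). Nfe2l1, the transcription factor that raises subunit genes, was at 246, 278 and 272 TPM with the rs6190 allele against 153, 162 and 101 TPM with the reference allele. All 3 homozygous libraries were far above WT, and the log2 fold change was 0.96 ± 0.19 (SE; adjusted p = 0.168 in limma). Its group of 4, with Nfe2l2, the protease Ddi2 and the deglycosylase Ngly1, had 3 at an unadjusted p under 0.05 and a median of 0.60. Nploc4, a cofactor of the Vcp unfoldase, had 25.4, 41.5 and 43.7 TPM in Homo 1, 2 and 3 against 21.5, 16.5 and 14.3 TPM in WT 1, 2 and 3. It too was apart, with the highest log2 fold change of the 41, 1.02 ± 0.24 (SE; adjusted p = 0.168 in limma). Of the 10 shuttle and unfoldase genes 7 were at an unadjusted p under 0.05 (23.7% of all genes), with a median of 0.39, and 1 of 10 with quantile normalization or median centring.

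Of the further subunits and docking factors, 6 of 11 were higher at an unadjusted p under 0.05 in limma (23.7% of all genes), with a median log2 fold change of 0.40, and 1 of 11 with quantile normalization or median centring. Pomp, the maturation protein of the core, was at 118, 129 and 138 TPM with the rs6190 allele against 95.4, 90.1 and 109.8 TPM with the reference allele, apart between the groups, with a log2 fold change of 0.38 ± 0.14 (SE; adjusted p = 0.174 in limma). Adrm1, a ubiquitin receptor of the regulatory particle, was at 85.5, 101 and 118 TPM in Homo 1, 2 and 3 against 76.1, 66.5 and 74.4 TPM in WT 1, 2 and 3, likewise apart, with a log2 fold change of 0.47 ± 0.15 (SE; adjusted p = 0.168 in limma). Usp14, a deubiquitinase that docks to the particle, was at 19.3, 24.6 and 25.4 TPM with the rs6190 allele against 16.1, 19.2 and 10.3 TPM with the reference allele, only just apart, with a log2 fold change of 0.60 ± 0.23 (SE; adjusted p = 0.181 in limma). Of the ubiquitin genes and their activating enzymes, 0 of 6 were at an unadjusted p under 0.05 in limma. The 10 antigen-processing genes tested had 1 at an unadjusted p under 0.05 and a median of 0.26; B2m, the light chain of class I molecules, was at 89.3, 91.5 and 77.9 TPM in Homo 1, 2 and 3 against 113, 116 and 58.3 TPM in WT 1, 2 and 3, overlapping, with a log2 fold change of -0.09 ± 0.26 (SE; adjusted p = 0.831 in limma).

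**Figure D4:**
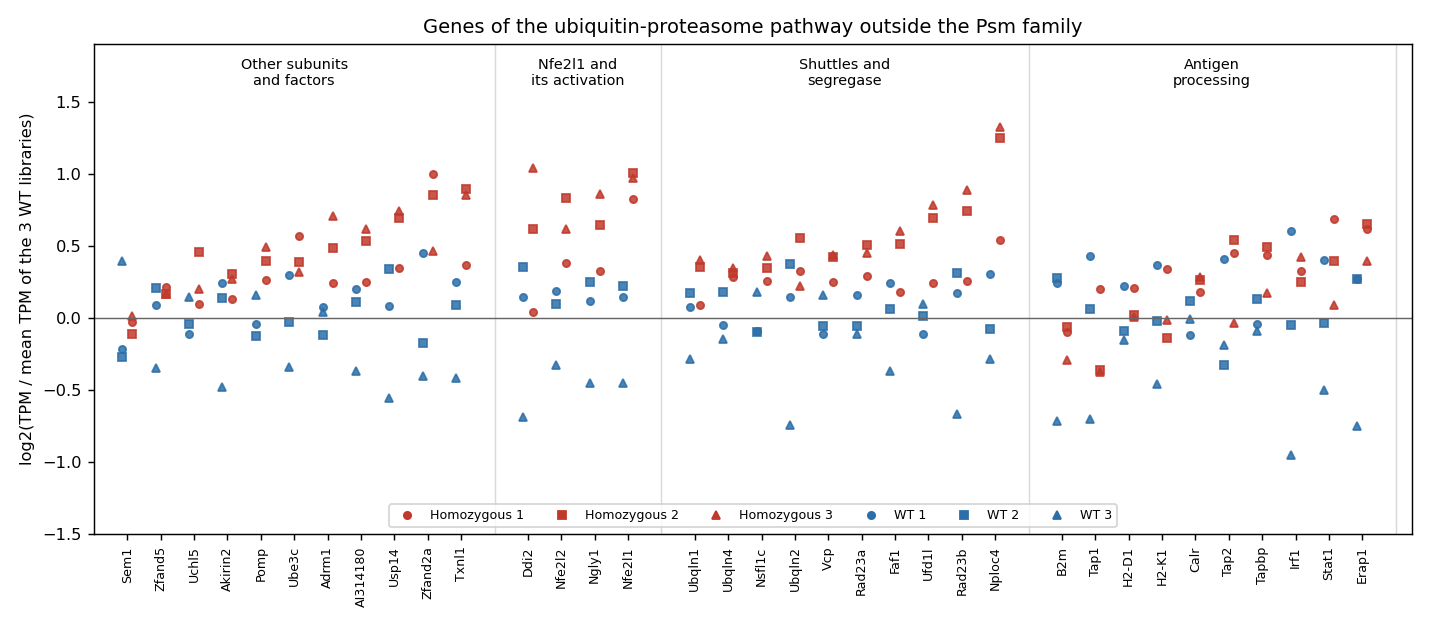
Level of the further proteasome pathway genes in each library, as log2 of the TPM over the mean TPM of the 3 WT libraries, by list; each point is 1 library, with colour for genotype and shape for library number. The ubiquitin supply genes are not drawn. Nfe2l1 and Nploc4 separate the genotypes, and WT 3 is the lowest point for many genes.

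Promoter windows from RefSeq (GRCm38.p6), 250 bases before to 50 after the start, were found for 39 of the 46 genes, and 11 motifs were searched on both strands. The Nfe2l1-type element TGACNNNGC was in 6 of 39 (15.4%), against 14.0% of the 27025 genes with a window. Its stricter form TGACTCAGC, which lies within it, was in 0 of 39, against 0.503%. The palindromic glucocorticoid response element, with its spacer bases free, was in 0 of 39, against 0.0111%, or 3 of 27025 genes. A motif that rare could hardly be met among 39 genes, so this 0 says nothing of receptor sites. The shares of the other motifs were as follows, with no test of any. Members held the interferon-stimulated response element type (12.8% against 3.99%), the nuclear respiratory factor 1 type (17.9% against 5.19%), AAGATGGCG (5.13% against 1.64%) and CACTTCCGG (10.3% against 2.25%). They held CCAAT (33.3% against 41.1%), TATAAA (10.3% against 15.7%), the NF-kappaB type (0 against 0.466%) and TGACGTCA (0 against 2.03%). To show what these windows hold, 150 bases that end before the annotated start are given for 2 cutting subunits with the TGACNNNGC element, in capitals, and for Psmd2, which has none of the 11 motifs there. Psmb5 is read from the minus strand, the other two from the plus strand.
Psmb5, chr14:54618023-54618172: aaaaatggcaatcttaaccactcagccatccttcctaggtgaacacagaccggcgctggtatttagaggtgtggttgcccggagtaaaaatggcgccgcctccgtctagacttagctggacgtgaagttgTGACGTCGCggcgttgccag
Psmb6, chr11:70525207-70525356: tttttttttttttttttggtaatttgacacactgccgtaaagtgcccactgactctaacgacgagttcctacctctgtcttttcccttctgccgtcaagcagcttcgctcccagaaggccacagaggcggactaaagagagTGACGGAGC
Psmd2, chr16:20651502-20651651: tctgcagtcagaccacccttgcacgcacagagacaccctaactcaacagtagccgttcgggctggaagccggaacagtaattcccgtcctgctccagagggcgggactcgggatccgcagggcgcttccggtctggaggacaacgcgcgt
The Psmb5 element ended 11 bases before the end of its stretch and that of Psmb6 at the end. The 6 genes with the element in their whole window were Psmb5, Psmb6, Psmc6, Psmd9, Psmd12 and Psme4, and genes with and without it were not compared. A match of letters is a description of the window and says nothing of binding.

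Reads that fit more than 1 gene bear on some of these values, since 9 of the 46 genes shared 10% or more of their 31-base stretches with transcripts of another symbol, and 16 shared none. Psmb5 shared 71.7%, mostly with the pseudogene Gm3375, which was listed at 0.102 to 0.720 TPM, and Psmd2 shared 31.6%, mostly with Gm5422, at no more than 0.0871 TPM. Psma3 differed from these: the symbol sharing most with it, Gm13835, was listed at 54.5, 80.6 and 103 TPM in Homo 1, 2 and 3 against 52.3, 68.3 and 73.5 TPM in WT. The Psma3 level is therefore uncertain. The 2 summed gave 217, 280.4 and 315 TPM against 206, 192 and 183 TPM, again with the groups apart.

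The size of the proteasome difference depended on how the libraries were scaled. The median log2 fold change of all genes, 0.26, became -0.007 with quantile normalization and -0.04 with median centring. Relative to that shift, the median of the core was 0.14 above all genes as deposited, and 0.05 to 0.29 above over 16 other settings; the regulatory particle was 0.28 above, and 0.16 to 0.43 above; the immunoproteasome was 0.27 below, and between 0.43 below and 0.02 above. Median centring and the replicate block leave these differences from all genes unchanged by construction, so those settings are no check of them. Without the 1 TPM filter the core and regulatory medians did not change, but that of all genes fell to 0.12. That setting gave the upper ends for the core and the regulatory particle, 0.29 and 0.43. With quantile normalization all 31 core and regulatory genes still had a log2 fold change above 0, against 48.9% of all genes. Of the 46 genes, 5 were then higher at an unadjusted p under 0.05 in limma, against 4.54% of all genes, and 4 lay wholly above WT, against 8.05%. With median centring 29 of the 31 were above 0, against 44.3% of all genes, and the 46 genes had 2 higher and 1 lower at that p (3.65% and 4.61% of all genes). With limma's array weights, which gave WT 3 the lowest weight (0.199), 12 of the 46 passed the adjusted threshold, against 810 of all genes (7.3%). These were Psma4, Psmb4, Psmc1, Psmc3, Psmc4, Psmd1, Psmd2, Psmd3, Psmd11, Psmd12, Psmd13 and Psmd14, all higher in the homozygous libraries. With the slow-fibre score as a covariate 3 of the 46 were at an unadjusted p under 0.05 in limma. The share of all genes at that p was not counted with this covariate. The medians were then 0.39 for the core and 0.45 for the regulatory particle, beside 0.16 for all genes.

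**Figure D5:**
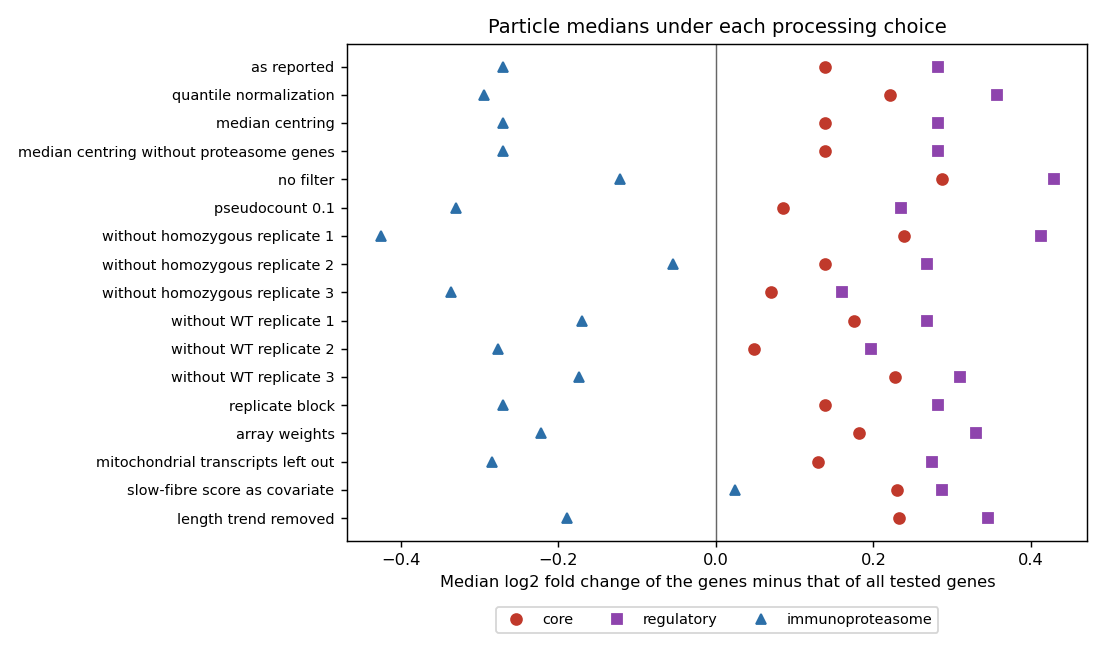
Median log2 fold change (homozygous minus WT) of the core, regulatory and immunoproteasome genes minus that of all genes tested, under each way of processing; each point is 1 particle in 1 setting, and 0 is the median of all genes. The regulatory points lie above 0 in every setting shown, by 0.16 to 0.43, and the core points by 0.05 to 0.29. The highest of both are those with no filter, where only the median of all genes changed. Median centring, in each form, and the replicate block cannot move these differences, so their points equal those as reported.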

How the data were processed

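Poly-A selected RNA of quadriceps muscle was sequenced from stranded TruSeq libraries, per the labels' protocols. The authors deposited 1 table of TPM per transcript for 6 libraries, with 105129 transcripts of 33641 gene symbols. The submitters' processing notes name FastQC, Trimmomatic, HISAT2, kallisto and mm10. Their roles and versions, and the annotation, are not stated there. Depth is unknown, because TPM keeps none. Transcript identifiers were matched to GENCODE M21 (GRCm38; 103635 found) for lengths, coordinates and transcript sequence.

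TPM was summed per symbol, genes that reached 1 TPM in 3 or more libraries were kept, and log2(TPM + 1) was fitted with limma 3.58.1 (R 4.3.3; trend and robust, genotype as the only term), with Benjamini-Hochberg adjustment over 11099 genes and, separately, 21165 isoforms. The plan allowed for counts; the table holds TPM, so no count model was used. An exact permutation test of 3 against 3 cannot go below 0.1 and was not used. The fit was run on simulated data with changes balanced in direction and no outlying library. That run does not show how it performs on data as one-sided as these. Tables were handled with pandas 2.3.3 and figures drawn with matplotlib 3.10.9.

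The genes named are the cutting subunits and their replacements, the activators and the inhibitor, and, by particle, those with the highest and lowest fold change and the smallest adjusted p, with 4 fixed pathway genes and the extremes of the pathway lists, some of which are not reported here. The members and lists were chosen with earlier results of these data known. Library numbers occur in both genotypes, but same-numbered libraries did not deviate together, so they were not treated as pairs.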

Additional observations from a re-analysis of the deposited data

How the results depend on the processing

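Other settings gave 0 members past the adjusted threshold in limma (26 at an unadjusted p under 0.05 as reported), except array weights with 12; isoforms past it were 0 in the settings run, which did not include the length trend. The count of 26 was 5 with quantile normalization, 3 with median centring, 3 with the slow-fibre covariate and 6 with the length trend removed, and 7 to 29 with 1 library left out. No pairing by library number was seen (correlations of same-numbered libraries -0.07, 0.06 and -0.01), though so few libraries cannot exclude one. The fit with the replicate block had 22. Shares of all genes at that p were not counted for the covariate, the length trend, the block or the fits with 1 library left out. The 25 genes with groups apart (25 above WT, 0 below) were, in either direction, 5 (4 above, 1 below) with quantile normalization and 4 (1 above, 3 below) with median centring. The count was 9 with mitochondrial transcripts left out, 3 (2 above, 1 below) with the length trend removed, and 25 to 37 with 1 library left out. Without Homo 1, 46.6% of all genes lay wholly above WT, against 34.7% with all 6 libraries. Shares of all genes were not counted for the other libraries left out, the mitochondrial setting or the length trend. Median log2 fold changes with quantile normalization, median centring and the length trend removed were 0.23, 0.12 and 0.19 over all members, 0.21, 0.10 and 0.22 over the core, 0.35, 0.24 and 0.33 over the regulatory particle and -0.30, -0.31 and -0.20 over the immunoproteasome. Centring on the median of genes outside the proteasome lists, chosen after seeing the data, gave 0.12, 0.10, 0.24 and -0.31. The immunoproteasome median reversed to 0.18 with the slow-fibre covariate and ran from -0.14 to 0.19 with 1 library left out. The Psmb9 share difference ran from -0.089 to 0.35 percentage points with 1 library left out, and that of Psmb10 was -0.046 on protein-coding transcripts. Of 32 named genes, 20 kept their direction in all 15 alternatives. The log2 fold change reversed with quantile normalization in Psmf1 (-0.10), Psmd5 (-0.11) and Psmg4 (-0.024); with median centring in Psma1 (-0.032), Psmb6 (-0.10), Psme2 (-0.030), Psmf1 (-0.11), Psmd5 (-0.11) and Psmg4 (-0.048); with the length trend removed in Psmf1 (-0.078) and Psmd5 (-0.084); and with the slow-fibre covariate in Psmb10 (0.18), Psme1 (0.11), Psmd5 (-0.13) and Psmd9 (0.11). With 1 library left out it ran from -0.17 to 0.19 in Psmb8, -0.25 to 0.027 in Psmb10, -0.21 to 0.038 in Psmd9, -0.12 to 0.033 in Psmg2 and -0.41 to 0.082 in B2m. The cause was not tested.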

Other observations

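Most proteasome RNA in this muscle was assigned to protein-coding transcripts. For 37 of the 46 genes they held 90% or more of the gene's TPM, with a median of 97.2%. Psmb10 and Psma3 were under 50%: the coding share of Psmb10 was 23.0% ± 7.53 in the homozygous and 16.7% ± 8.21 in the WT libraries (SD, n = 3 each), and that of Psma3 22.7% ± 7.81 and 23.5% ± 7.72. The level of a gene summed over transcripts and its level of coding RNA are therefore different quantities for these genes.

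The recombination gene Psmc3ip, matched by the symbol pattern alone, was at 2.93, 2.52 and 2.33 TPM in Homo 1, 2 and 3 against 1.94, 2.02 and 3.50 TPM in WT 1, 2 and 3, with a log2 fold change of 0.07. Of the 4 proteasome pseudogene symbols left out, Psmb5-ps, Psmb6-ps and Psmb6-ps2 were listed at 0 in all 6 libraries, and Psmb7-ps2 lay between 0.0815 and 0.627 TPM.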
